A study of Mus musculus with 6 samples.

Results

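The subject is the loss of Ezh1 and Ezh2 in basal epidermis, the layer of progenitor cells that sits on the basement membrane of the skin and feeds the layers above it. The members are the arrays titled as sorted basal epidermal cells of the Ezh1/2 2KO (double knockout) and Ezh1/2 WT genotypes, 2 of the 6 arrays of the series, and the genes they measure. The other 4 arrays hold hair matrix and outer root sheath (ORS) cells of the same genotypes. All 6 samples were skin cells of 14-day-old mice of a mixed C57B6 and CD1 background, purified by FACS. The 2KO basal sample is labelled female, whereas the WT basal sample and the other 4 are labelled as female and male together. The labels name neither the Cre driver or promoter behind the knockout nor the number of mice in a sample, and they do not say whether the 3 samples of a genotype shared mice.

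Each of the 6 groups had 1 array, so no spread between replicates of a group could be estimated, no test was made, and every difference below compares 2 arrays. RNA was read as a MAS5 signal, a brightness on a linear scale given per probe set, and each gene was followed through 1 probe set. A floor of 83.2 signal units was used, which is the median signal over the 6 arrays. Signals under it were raised to it before a ratio was taken, where only 1 signal lay under it the ratio is a bound, written as at least N-fold, and a gene below the floor on both arrays counted as not measured. Of 18193 genes represented, 11527 were measured in the basal pair. A gene is called higher or lower where the 2KO and WT signals differed by at least 2-fold, the fold that the series text uses. Because the cells were pooled for RNA, fewer cells of a type and less RNA per cell cannot be told apart.

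Ezh1 and Ezh2 are alternative enzymes at the heart of Polycomb repressive complex 2 (PRC2), and either can methylate lysine 27 of histone H3. Chromatin marked in this way is held silent together with Polycomb repressive complex 1 (PRC1), and its best-known targets are developmental regulators of other lineages, Hox genes and the INK4/ARF locus. In skin, PRC2 is known for keeping basal progenitors from expressing such genes, among them those of Merkel cells, the touch receptor cells of the epidermis.

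The labels were checked first against the deleted genes and the markers of the layer. Ezh2 read 2563 in WT and 432 in 2KO basal cells, 5.93-fold lower. Ezh1 read 401 and 57.4, at least 4.82-fold lower, at 1 of its 4 probe sets. The other 3 were below the floor on both arrays, and with them entered at 0 the mean log2 ratio of Ezh1 was -0.57. Which exons were removed is not stated in the labels, so the probes may lie outside the deleted parts. Krt5 and Krt14, the keratin pair that defines basal keratinocytes, were high on both arrays, at 28090 and 30630 for Krt5 and at 26580 and 29770 for Krt14, WT first. Krt10, a keratin of the layer above, was also high on both, at 28000 in WT and 34140 in 2KO. At the probe set used for each, these 3 keratin genes differed by at most 1.22-fold between the arrays. For Krt14 the log2 ratio was 0.16 at that probe set and -0.28 as the mean over its probe sets.

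The sex label of the 2KO array was not borne out. Eif2s3y, which lies on the Y chromosome, read 1194 on the array labelled female and 580 on the WT array labelled as both sexes, and Kdm5d, also Y-linked, read 218 and 83.4. Both signals were thus higher where the label names females alone, by 2.06-fold and 2.61-fold. Xist, the transcript of the inactive X chromosome, read 9426 in WT and 7837 in 2KO at its brightest probe set, and its other probe sets were 3.17-fold and 1.97-fold lower in 2KO. The library labelled female thus gave Y-linked and Xist signals together. The share of males in each sample is not known, and its part in the differences below was not tested.

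In 2KO basal cells 760 genes were at least 2-fold higher, 6.59% of those measured, and 471 were at least 2-fold lower, 4.09%. These shares are the background beside which the list counts below are to be read. The excess of higher genes depended on the scaling, with 691 higher and 632 lower after scaling to a common median and 642 and 586 after scaling to the hybridisation controls. The differences were uneven in size, with 168 higher and 80 lower genes past 4-fold, 42 and 19 past 8-fold, and 9 and 4 past 16-fold. The median log2 ratio of all measured genes was 0.04, and the 5th and 95th percentiles were -0.92 and 1.19. Scaling the arrays to a common median moved that median to -0.067, and ratios given below are relative to the deposited scaling. The share of genes that were higher depended on the WT signal, which is also the denominator of the ratio. It was 27.97% of the 876 genes below the floor in WT, which could only be measured if 2KO was above it, and then 12.97%, 8.92%, 3.93%, 2.69% and 1.79% with rising WT signal, down to 0.356% of the 844 genes with a WT signal of at least 64 times the floor. The share that were lower stayed between 4.47% and 5.56% in every class with a WT signal of at least 2 times the floor. Below that signal no gene could be called lower, and classes by 2KO signal were not made. Among the 10651 genes above the floor in WT, 515 were higher, which is 4.84%, and 471 were lower.

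**Figure D1:**
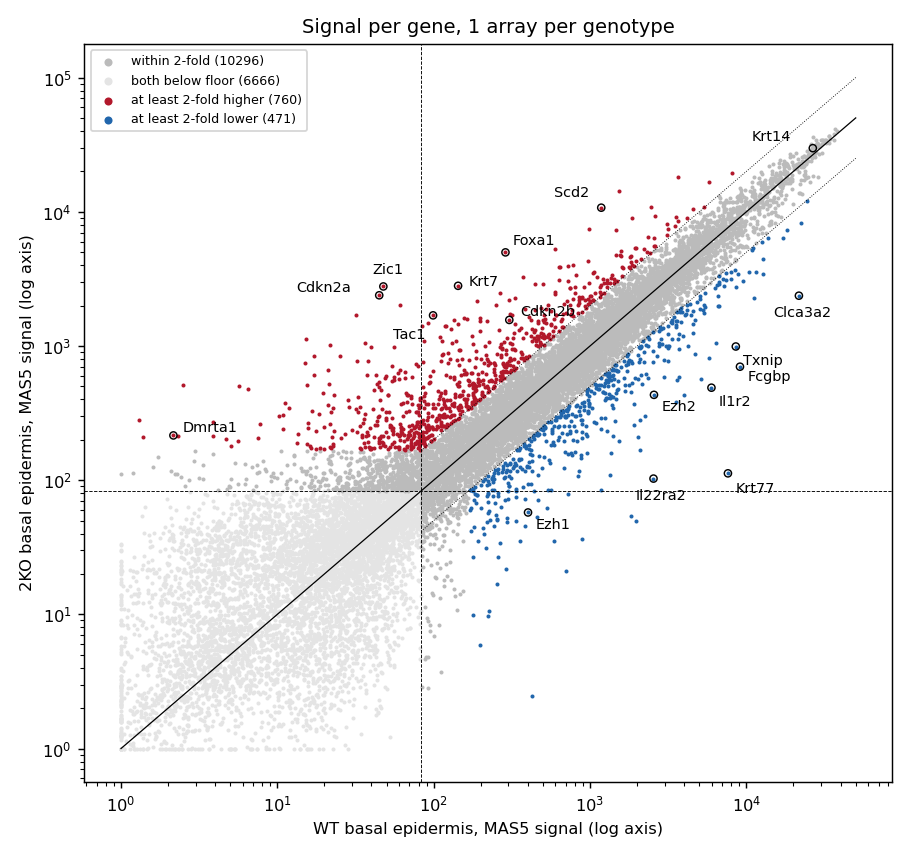
MAS5 signal of each gene in WT (x axis) and 2KO (y axis) basal epidermis, both on log axes, 1 array per genotype; dashed lines mark the floor of 83.2, dotted lines a 2-fold difference, and signals under 1 are drawn at 1. The 760 higher genes (red) lie mostly at low WT signals, and Krt14 lies near the diagonal. The 471 lower genes (blue) lie at WT signals of at least 2 times the floor, since the floor allows no lower call below that.

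Other probe sets of the same genes gave an internal check of the platform, although not of the biology. Of the 760 higher genes, 284 had another measured probe set, and in 114 of these every other one was also at least 2-fold higher. Of the 471 lower genes, 185 had another, and in 86 all others were at least 2-fold lower. The other probe sets were all below the floor on both arrays in 137 more of the higher and 50 more of the lower genes. In 0 genes of either group was another probe set 2-fold the opposite way. Between well-measured probe sets of 1 gene, the log2 ratios spanned 0.30 in the median gene of 3533 and 0.95 at the 95th percentile, so that a call near 2-fold lies close to what the choice of probe set alone can move. Calls made under all 9 alternative settings numbered 149 of the 760 higher and 163 of the 471 lower genes.

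The gene with the largest ratio was Zic1, a zinc finger factor of neural and mesodermal development. It read 47.6 in WT and 2775 in 2KO, at least 33.4-fold higher, and its second probe set went from 18.4 to 413. Cdkn2a, which encodes the cell cycle inhibitors p16 and p19ARF, followed with 44.8 and 2385, at least 28.7-fold higher. Foxa1, a forkhead factor of endodermal organs, was above the floor in WT at 288 and read 4979 in 2KO, 17.3-fold higher. At the other end stood Krt77, a keratin of suprabasal epidermis and sweat ducts, which read 7616 in WT and 112 in 2KO, 67.8-fold lower.

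The bases just before the annotated starts of these genes are printed as examples of the sequence that stands there. Cdkn2a was set in advance, and the others were picked from the 25 largest and 25 smallest ratios by no further rule. Atg9b, Calml4 and Krt7, whose ratios were larger than that of Foxa1, are not printed. The windows therefore do not stand for higher and lower genes in general. Each window is the 250 bases upstream of a RefSeq start on GRCm38.p6, all on the minus strand, read 5′ to 3′, with every CG dinucleotide in capitals. Cdkn2a has a pair of windows, for its 2 starts, at chr4:89294620-89294869 and chr4:89282193-89282442. Zic1 is at chr9:91365769-91366018, Foxa1 at chr12:57546112-57546361 and Krt77 at chr15:101869706-101869955.
Cdkn2a, first window: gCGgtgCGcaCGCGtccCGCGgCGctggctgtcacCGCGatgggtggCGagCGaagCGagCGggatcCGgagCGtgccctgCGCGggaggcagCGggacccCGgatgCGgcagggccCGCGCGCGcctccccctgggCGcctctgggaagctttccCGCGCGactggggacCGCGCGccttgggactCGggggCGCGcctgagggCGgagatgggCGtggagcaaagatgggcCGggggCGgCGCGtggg
Cdkn2a, second window: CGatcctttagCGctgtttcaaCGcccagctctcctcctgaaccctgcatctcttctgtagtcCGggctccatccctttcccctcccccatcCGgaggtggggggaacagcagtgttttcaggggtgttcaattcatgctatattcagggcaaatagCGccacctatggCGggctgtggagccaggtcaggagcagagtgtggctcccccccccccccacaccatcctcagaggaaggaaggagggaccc
Zic1: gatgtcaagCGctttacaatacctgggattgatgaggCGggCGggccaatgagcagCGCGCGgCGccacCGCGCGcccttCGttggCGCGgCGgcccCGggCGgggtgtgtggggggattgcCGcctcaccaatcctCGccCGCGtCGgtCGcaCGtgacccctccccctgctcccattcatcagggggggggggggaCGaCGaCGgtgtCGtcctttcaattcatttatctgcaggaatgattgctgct
Foxa1: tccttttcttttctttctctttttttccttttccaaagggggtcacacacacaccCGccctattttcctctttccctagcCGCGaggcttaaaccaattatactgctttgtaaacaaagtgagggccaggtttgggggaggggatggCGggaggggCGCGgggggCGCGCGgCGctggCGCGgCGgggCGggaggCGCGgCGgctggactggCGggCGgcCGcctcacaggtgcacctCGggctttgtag
Krt77: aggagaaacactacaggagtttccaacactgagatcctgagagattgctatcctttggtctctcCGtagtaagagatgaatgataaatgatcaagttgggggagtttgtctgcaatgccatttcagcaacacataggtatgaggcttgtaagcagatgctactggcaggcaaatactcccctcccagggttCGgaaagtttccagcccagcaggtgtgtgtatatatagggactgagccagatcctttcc
The first Cdkn2a window holds 40 CG dinucleotides, and 1.31% of the 32851 RefSeq windows of this length hold as many. The second Cdkn2a window holds 7, a count reached by 46.3%. Zic1 holds 27, reached by 8.56%, and Foxa1 21, reached by 16.3%. Krt77 holds 2, a count reached by 81.2% of windows, where the median window holds 6. The Cdkn2a probe set does not separate the transcripts from the 2 starts, so the signal cannot be assigned to either window. A comparison of base composition over all higher and lower genes was void, because windows were found for 76.7% and 77.7% of them, under the 80% set as the minimum.

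The measured genes on both sides of Cdkn2a were higher as well. Cdkn2b, which encodes p15 beside it, read 304 in WT and 1562 in 2KO, 5.13-fold higher. Mtap, the metabolic enzyme gene on the other flank, read 891 and 1796, 2.01-fold higher, and its other 3 probe sets were 2.06-fold to 2.79-fold higher. Dmrta1, the next measured gene beyond Cdkn2b, was at 2.16 in WT and 215 in 2KO, at least 2.59-fold higher. Being below the floor in WT, Dmrta1 could not be lower. Mtap was within 2-fold in the other cell types, at 2082 and 1635 in matrix and 1138 and 1393 in ORS, WT first. Of 10 cell cycle inhibitors in all, these INK4 genes were the 2 that were higher. Cdkn1b, which encodes p27, was 2.23-fold lower, at 1566 and 702. Cdkn1a, which encodes p21, was within 2-fold at 13420 and 14900.

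Neighbouring genes shared calls in other places too. When measured genes were ordered along the chromosomes, the next gene was also higher for 9.76% of the 758 higher genes that have one, where 6.59% of all placed genes were higher, and it was also lower for 10.4% of the 470 lower genes, where 4.09% of all were. Copies within a gene family often lie side by side, and the shares were not corrected for probes that read several copies. Runs of higher genes included Hoxd13, Hoxd10 and Hoxd9, and Plaur, Cadm4 and Zfp428, at 2.79-fold, at least 8.75-fold and 2.65-fold. These Hoxd genes and Cadm4 were below the floor in WT. They entered the order only through their 2KO signal and could not be lower, and genes that were not measured are skipped in it. Runs of lower genes included Sostdc1 (4.91-fold), Agmo (at least 4.26-fold) and Scin (9.21-fold). The receptor genes Ifngr1 (3.72-fold), Il22ra2 (24.8-fold) and Il20ra (2.04-fold) also formed a lower run.

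**Figure D2:**
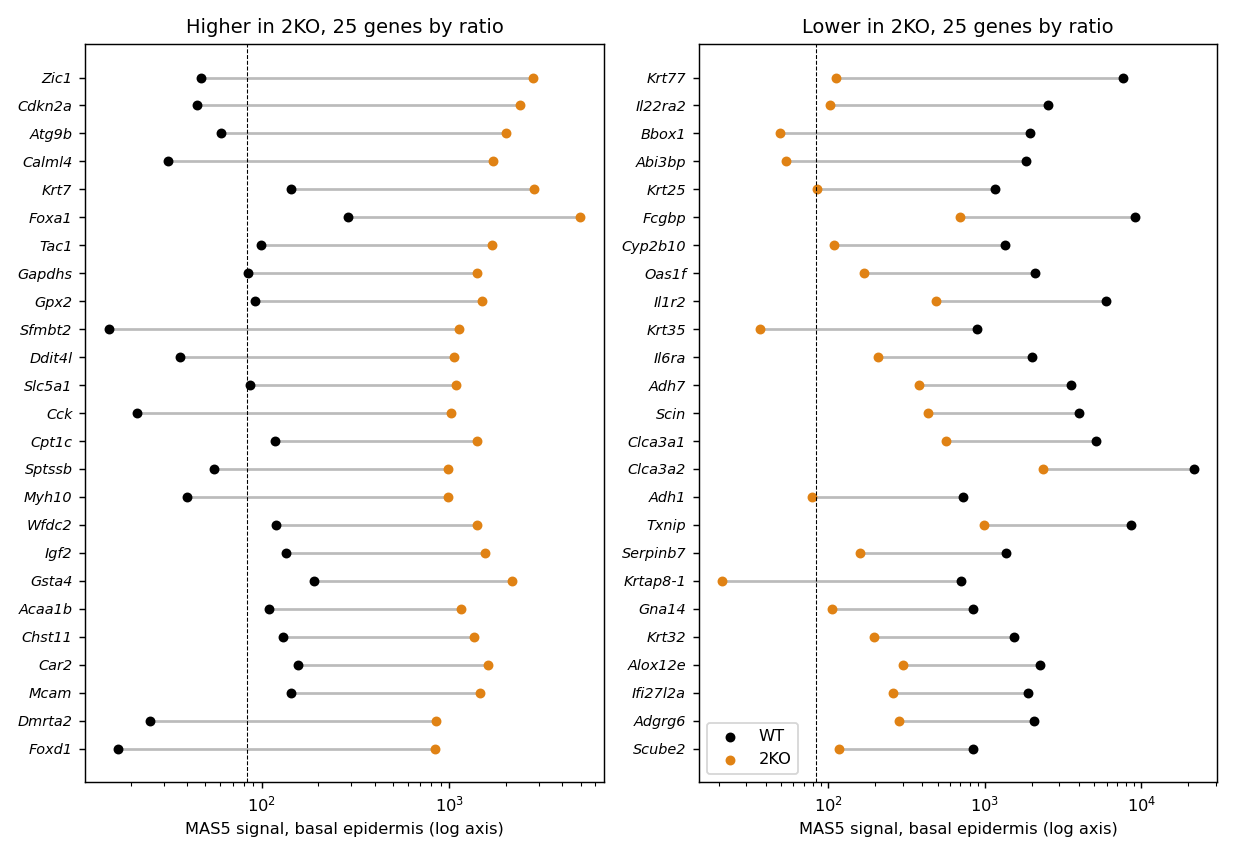
MAS5 signal in WT (black) and 2KO (orange) basal epidermis, log axis, for the 25 most raised and the 25 most lowered ratios, 1 array per genotype; the dashed line is the floor of 83.2. Of the higher genes, Zic1 and Cdkn2a start below the floor and Foxa1 at 288, and Krt77 spans the widest ratio at 67.8-fold.

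Besides the deleted genes, 9 PRC2 members were measured and all lay within 2-fold. Over all measured genes 6.59% were higher and 4.09% lower, so 0 calls among 9 lies near the share of all genes. The core partners Eed (3190 and 3275) and Suz12 (2600 and 2263) were among the 9, as were the accessory subunits Jarid2 (1.44-fold higher) and Phf19 (at least 1.55-fold higher). Of 21 PRC1 and related genes, 3 were higher and 0 lower. Sfmbt2, which encodes a Polycomb family protein and is imprinted, read 15.3 in WT and 1126 in 2KO, at least 13.5-fold higher, and its second probe set was below the floor on both arrays. Phc1, which encodes a polyhomeotic subunit of PRC1, went from 111 to 448, and Bmi1 from 1441 to 3035. The median over the 21 was 0.35, but it was 0.23 after scaling to a common median. Of 16 genes for other chromatin enzymes 0 were called, which is also near the share of all genes. Kdm6b, a demethylase of the same histone mark, came nearest to a call, at 6689 in WT and 3392 in 2KO, 1.97-fold lower. The maintenance methyltransferase Dnmt1 was 1.25-fold higher.

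Lineage regulators outside the Hox clusters include several of the leading genes, Zic1 and Foxa1 among them. Of 65 measured among 123 matched, 25 were higher and 4 lower, with a median of 0.62 against 0.04 over all genes. The floor was above the WT signal of 36 of the 65, which could not be lower. With the floor at the 75th percentile of all signals the median was 0.004. Among the 29 above the floor in WT, 8 were higher and 4 lower with a median of -0.06, beside 4.84% higher over all such genes. Forkhead, T-box, homeobox and neural factors were all represented. Foxd1, a factor of kidney stroma, read 17.1 in WT and 837 in 2KO, at least 10.1-fold higher. Pitx1, which marks the hindlimb, went from 32.2 to 777, at least 9.35-fold. Sox11, a factor of immature neurons, went from 41.6 to 466. Lhx2, a regulator of hair follicle stem cells, was above the floor in WT at 141 and read 520 in 2KO, 3.69-fold higher.

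The 4 lower regulators were all above the floor in WT. Gata3, which epidermis and inner root sheath use, read 3690 in WT and 954 in 2KO, 3.87-fold lower. Pou3f1, a POU factor of differentiating keratinocytes, read 5336 and 1768, 3.02-fold lower, and Irx2 read 4678 and 1559. Irx3, of the same Iroquois family, was within 2-fold at 9870 and 8585. Ascl2 was the fourth lower member, at 292 and 115.

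Hox genes, which give cells their position along the body axis, are given here by paralog group, and the floor bears unequally on the groups. Of 14 measured genes of groups 1 to 8, all above the floor in WT, 7 were lower, 1 was higher and the median was -0.95. Hoxa5 was 4.27-fold lower at 884 and 207, Hoxb2 was 3.83-fold lower at 544 and 142, and Hoxc8 was within 2-fold at 1136 and 667. Hoxd8 was the exception, at 85.1 in WT and 757 in 2KO, 8.90-fold higher. Of 11 measured genes of groups 9 to 13, 9 were higher and 0 lower with a median of 1.68, but only 2 of the 11, Hoxa9 and Hoxc13, were above the floor in WT. The other 9 were measured only because 2KO was above the floor, so they could not be lower. Their calls and that median therefore cannot be set evenly against groups 1 to 8. Hoxa9 read 275 and 971, 3.53-fold higher, and Hoxc13 read 189 and 225, 1.19-fold higher. Hoxd9 went from 44.6 to 537 and Hoxb13 from 2.49 to 509, at least 6.46-fold and at least 6.11-fold. With the floor raised to the 75th percentile of all signals the medians of both sets shrank, to -0.23 and 0.21.

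Imprinted genes, which are normally expressed from the copy of only 1 parent, had ratios above 0 in nearly all cases. Of 22 measured, 21 were above 0, 8 were higher, 1 (Ascl2) was lower and the median was 0.66. Igf2, a fetal growth factor, read 135 in WT and 1550 in 2KO, 11.5-fold higher, while its second probe set was below the floor on both arrays. Ndn read 114 and 1091, 9.59-fold higher, and its 4 other measured probe sets were 5.22-fold to 8.69-fold higher. Peg3 read 406 and 1637, 4.03-fold higher. Plagl1 was within 2-fold at 10590 and 14220, as was Meg3 at 274 and 491. Of the 17 above the floor in WT, 5 were higher with a median of 0.58.

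Merkel cell genes had a median of 2.92, and 8 of 9 measured members were higher with 0 lower, beside 6.59% higher over all genes. That median was the highest of the lists at the floor and probe sets used here but not at other floors, being 2.25 beside 2.62 for Hox groups 9 to 13 at the 25th percentile and 1.13 beside 1.77 for neuropeptides at the 75th. The keratins of simple epithelia and Merkel cells led them. Krt7 read 143 in WT and 2806 in 2KO, 19.6-fold higher, Krt18 read 219 and 1533, 7.01-fold higher, and Krt8 read 67.5 and 380, at least 4.56-fold higher. The factors Sox2 and Isl1 were below the floor in WT at 15.6 and 14.98 and read 509 and 750 in 2KO. Tac1, the precursor of substance P, went from 99.1 to 1690, with a second probe set below the floor on both arrays, and Cck, the precursor of cholecystokinin, from 21.6 to 1018. The other defining members were at or near background. Atoh1, the factor required for Merkel cell fate, read 47.2 and 26.2, and Pou4f3 read 5.17 and 26.5, both under the floor on both arrays. Krt20, the keratin by which mature Merkel cells are recognised, read 19.3 in WT and 100.4 in 2KO, at least 1.21-fold higher. Of the 20 matched members, 16 were below the floor in WT and 11 in 2KO, while their summed signal was 981 and 9954. Of the 20, 4 were above the floor in WT, and all 4 were higher, beside 4.84% over all genes above it in WT. The other 5 measured members were below the floor in WT. They were measured only through their 2KO signal and could not be lower. Of all genes below the floor in WT, 27.97% were higher.

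Neuropeptide genes beyond this set included Calcb, which encodes a calcitonin gene-related peptide, at 164 in WT and 1588 in 2KO, 9.66-fold higher, and Npy, at 72.2 and 371, at least 4.46-fold. Penk, which encodes enkephalins, was within 2-fold at 780 and 537. In all, 3 of 6 measured neuropeptide genes were higher, Tac1 being the third, and 16 genes of that list were matched. Over all measured genes the share was 6.59%. For 2 of the 6 the WT signal did not reach the floor, so a lower call was not possible. The remaining 4 included 2 higher and 0 lower genes. The list of simple epithelial keratins also holds keratins of stratified internal linings, and of 7 measured 5 were higher. Only the 2KO array brought 4 of these keratins past the floor, which left no room for a lower call. The 3 keratins with a WT signal past the floor split into 2 higher and 1 lower. Krt4, a keratin of oesophagus, went from 43.6 to 519, at least 6.24-fold. Krt80 was the 1 lower member, at 3701 and 583, 6.35-fold lower.

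**Figure D3:**
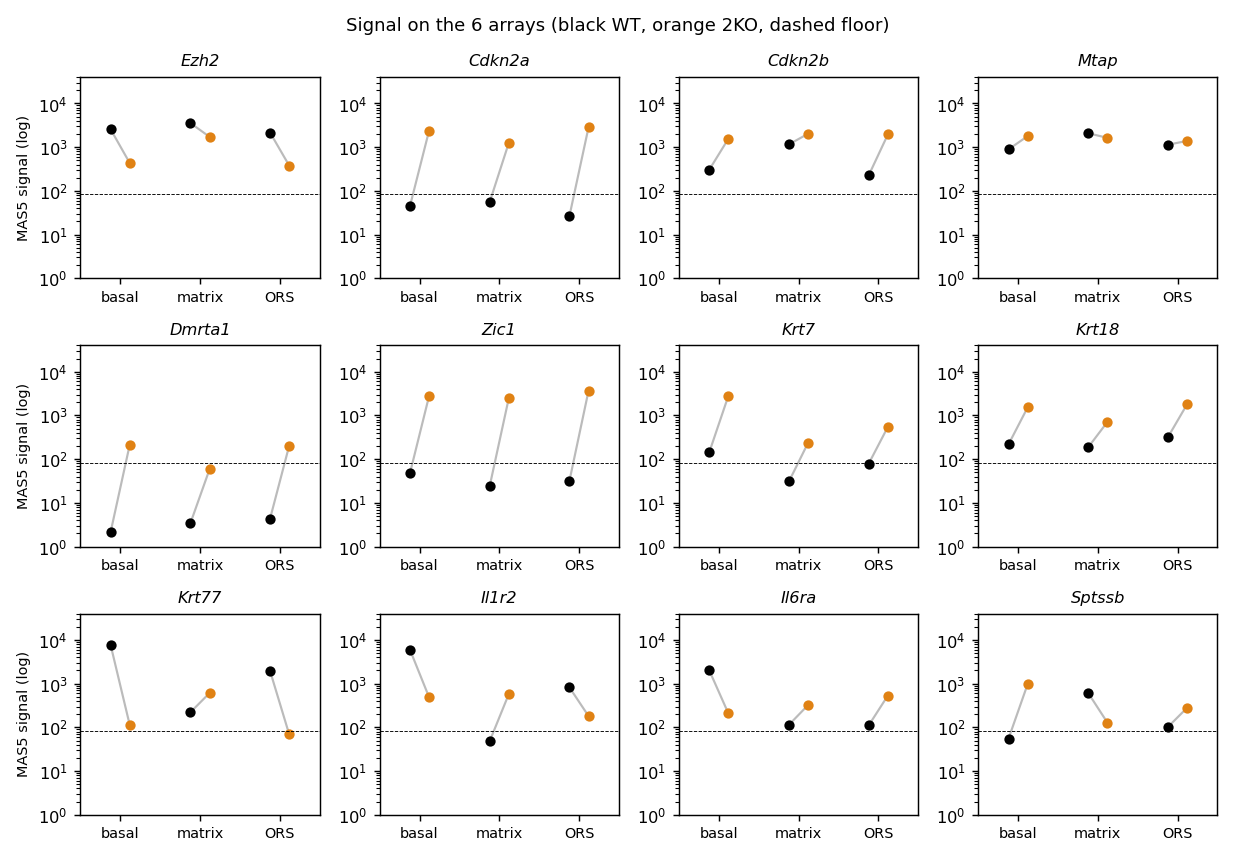
MAS5 signal of 12 genes on all 6 arrays, WT black and 2KO orange, log axes, with the floor of 83.2 dashed; basal, matrix and ORS are the 3 cell types, 1 array per group. Cdkn2a, Zic1 and Krt18 are higher in 2KO in all 3, whereas Krt77, Il1r2, Il6ra and Sptssb differ in direction between cell types.

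Genes that define the basal layer itself all stayed within 2-fold. Of 19 measured genes for basal keratins, integrins, laminins and hemidesmosome parts, 0 were called and the median was -0.21. Over all measured genes 6.59% were higher and 4.09% lower, so 0 of 19 lies near the share of all genes. Trp63, the master factor of stratified epithelia, read 10140 in WT and 5470 in 2KO, 1.85-fold lower. The hemidesmosome collagen Col17a1 was 1.57-fold lower, at 21570 and 13760, and the integrin gene Itgb4 was 1.45-fold higher, at 2336 and 3394. Krt15 was 1.58-fold lower, at 28540 and 18000.

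Genes of the spinous layer, where keratinocytes start to differentiate, went both ways. Of 29 measured, 8 were higher and 3 lower, with a median of -0.03. The abundant spinous keratins Krt1 (16390 and 17730) and Krt10 were within 2-fold. Calml3, a calmodulin-like gene of differentiating cells, read 319 in WT and 1688 in 2KO, 5.29-fold higher. Grhl3, a factor of barrier formation, read 813 and 3379, 4.16-fold higher, and Prdm1, which encodes Blimp1, read 742 and 2698. Lower were Krt77, the desmosomal cadherin Dsg1a (4241 and 1004, 4.22-fold) and the factor Ovol2 (417 and 194, 2.15-fold).

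Among cornified envelope genes, whose products are crosslinked into the outer shell of the dead cell layer, 11 of 22 were higher and 4 lower. The median of 1.05 depended on the floor, and was 0.055 with the floor at the 25th percentile of all signals and 0.17 at the 75th. The 16 above the floor in WT split into 6 higher and 4 lower with a median of -0.14. Sprr2h read 446 in WT and 2879 in 2KO, 6.46-fold higher, Sprr1b read 1847 and 9051, 4.90-fold higher, and Crct1 read 268 and 1034. Loricrin, the main protein of the envelope, was 3.41-fold higher (Lor, 308 and 1051). The opposite held for Scel, which encodes sciellin (6561 and 1971, 3.33-fold lower), Ppl, which encodes periplakin (3827 and 1902), Flg, which encodes filaggrin (207 and 43.8, at least 2.49-fold lower) and Tchh, which encodes trichohyalin (1266 and 555). Involucrin was within 2-fold (Ivl, 295 and 259).

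Several of the higher genes adjoin each other in the epidermal differentiation cluster on chromosome 3. In the order of measured genes S100a8, S100a9, Lor, Prr9 and Sprr2d were 5 higher genes in a row, from 2.43-fold for Prr9 to 3.41-fold for Lor. Sprr2h, Sprr2i, Sprr2j-ps, Sprr2k and Sprr1b were another 5, and Lce3b, Lce3c, Lce3f and Crct1 were 4. The Sprr2 and Lce3 genes are near-identical copies, so how the signal divides among them is uncertain. S100a8 and S100a9, which encode the alarmin calprotectin, read 2340 and 6506 and 1966 and 5413, WT first. They were the 2 of 10 measured S100 genes that were called.

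Proteases, crosslinking enzymes and lipid enzymes of the barrier gave calls in both directions. Of 20 desquamation genes, 4 were higher and 3 lower. Prss22, a serine protease, read 197 in WT and 1611 in 2KO, 8.19-fold higher, whereas the kallikreins Klk7 (3588 and 562, 6.38-fold) and Klk5 (414 and 157, 2.64-fold) were lower. Of 7 crosslinking enzymes, Tgm1, the transglutaminase of the cornified envelope, was 2.23-fold higher at 540 and 1201, while Padi4, Tgm5 and Tgm2 were lower. Of 30 barrier lipid genes, 3 were higher and 5 lower with a median of -0.19. Alox12e, a lipoxygenase, read 2238 and 300, 7.47-fold lower, and Fa2h, which hydroxylates fatty acids, read 768 and 155. Sult2b1, the cholesterol sulfotransferase, read 316 and 1036, 3.28-fold higher.

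Junction genes were mostly within 2-fold, with 7 of 31 higher and 1 lower, beside 6.59% and 4.09% over all genes. The 4 that were below the floor in WT could not be lower. Among the 27 above it in WT, 3 were higher and 1 lower with a median of 0.01, beside 4.84% higher over all such genes. The higher ones included junction proteins that WT basal cells showed at low signals, Dsc2 at 199 and 1289 (6.48-fold), Cldn7 at 55.8 and 559 (at least 6.72-fold) and Pkp2 at 45.2 and 397 (at least 4.76-fold). Cldn4, a tight junction claudin, was far above the floor in WT at 4525 and read 10440 in 2KO, 2.31-fold higher. The classical adherens genes Cdh1 (19490 and 16920) and Ctnnb1 (14550 and 16600) were within 2-fold, as was desmoplakin (Dsp, 24040 and 23210).

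Stress keratins and wound genes had 15 of 47 higher and 4 lower, with a median of 0.37, which was 0.27 after scaling to a common median. Ereg, which encodes the growth factor epiregulin, read 252 in WT and 2020 in 2KO, 8.02-fold higher, and the protease inhibitor gene Slpi read 989 and 7378, 7.46-fold higher. Krt6b read 3657 and 18090, 4.95-fold higher, while its near-identical copy Krt6a was 1.41-fold higher at 19020 and 26890, and their signals may overlap. The collagenase Mmp13 read 727 and 3972. Lower were Defb6, an antimicrobial defensin (6433 and 1046, 6.15-fold), the alarmin Il33 (2021 and 570) and Mmp3, and Krt17 was within 2-fold at 15860 and 16240.

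**Figure D4:**
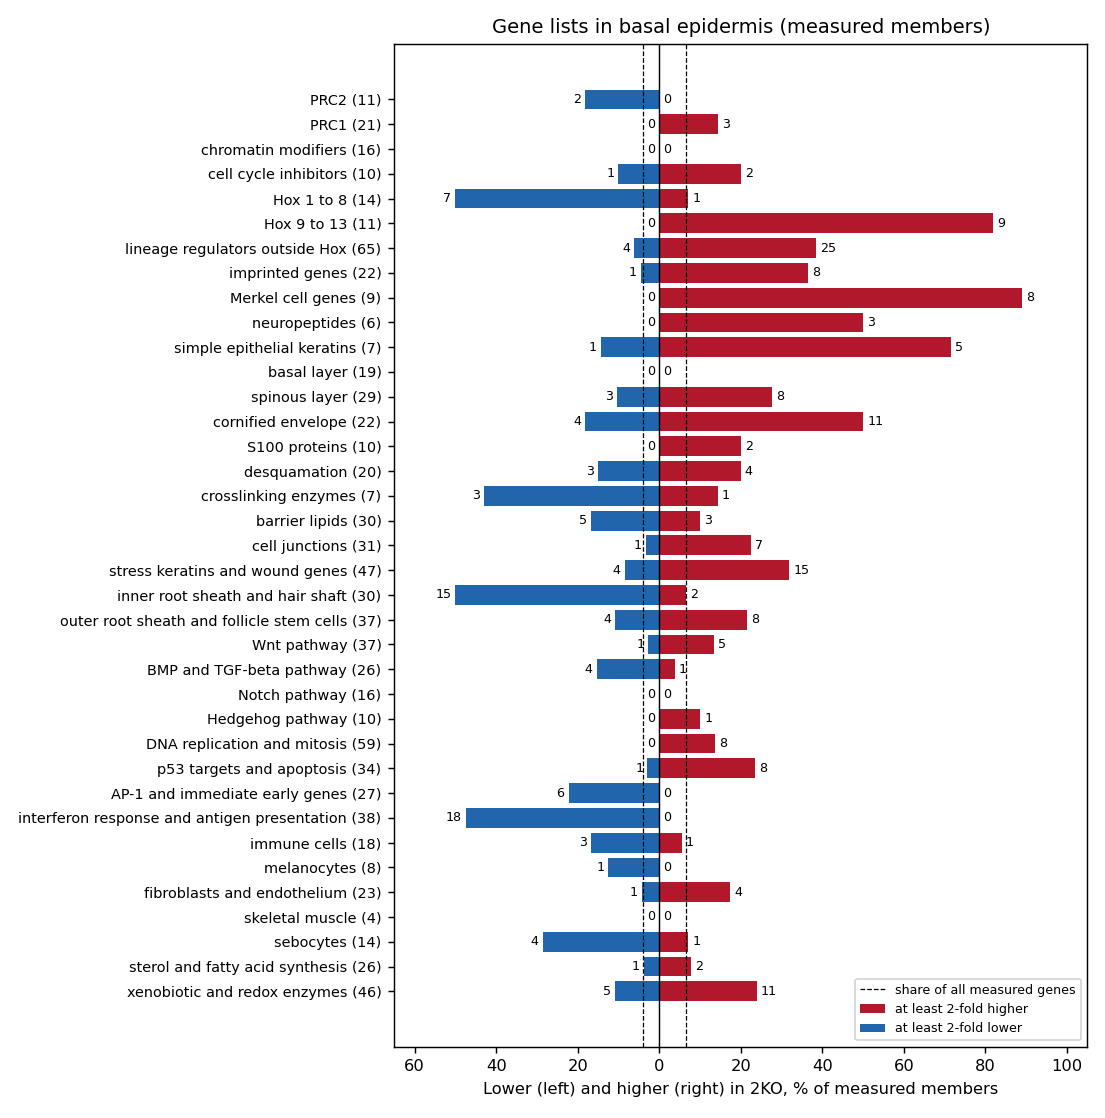
Share of the measured members of each gene list that were at least 2-fold higher (red, right) or lower (blue, left) in 2KO basal epidermis, in percent, with the counts at the bar ends and the number measured in brackets; dashed lines are the shares of all measured genes, 6.59% and 4.09%. Merkel cell genes (8 of 9) and Hox groups 9 to 13 (9 of 11) reach furthest right. Of these measured members, 5 and 9 were below the floor in WT and could not be lower. Hair genes (15 of 30), Hox groups 1 to 8 (7 of 14) and interferon genes (18 of 38) reach far to the left, with 2, 1 and 0 members higher.

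Cell division genes mostly had ratios above 0. Of 59 measured genes for DNA replication and mitosis, 54 were above 0, 8 were at least 2-fold higher and 0 lower, with a median of 0.54. Ccnd1, which encodes cyclin D1, read 3633 in WT and 8474 in 2KO, 2.33-fold higher. Ube2c, which encodes a mitotic ubiquitin enzyme, read 3108 and 8111, 2.61-fold higher, and Rrm2, which encodes a subunit of ribonucleotide reductase, read 3480 and 7838. Mki67, the proliferation marker Ki-67, was within 2-fold at 3633 and 4833, and so was Pcna at 12970 and 14880. These higher signals stood on the same array as the higher INK4 genes described above.

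p53 targets and apoptosis genes had 8 of 34 higher and 1 lower, with a median of 0.29. Eda2r, a death receptor gene, read 148 in WT and 926 in 2KO, 6.27-fold higher. Ccng1, which encodes cyclin G1, read 2471 and 10830, 4.38-fold higher, and its other 2 probe sets were 7.29-fold and 3.80-fold higher. Apaf1, which encodes the apoptosome scaffold, read 223 and 767. Cdkn1a, the best-known p53 target, was within 2-fold as given above, and Sesn1 was lower, at 2990 and 787.

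Interferon response and antigen presentation had 18 of 38 measured members lower, 47.4%, with 0 higher and a median of -0.88. Oas1f, an antiviral synthetase gene, read 2081 in WT and 169 in 2KO, 12.3-fold lower, and Usp18, a brake on interferon signalling, read 529 and 62.2, at least 6.35-fold lower. Regulators were lower as well, with Irf9 at 1316 and 439, Irf1 at 7977 and 3152, and Nlrc5, which drives class I genes, at 3350 and 1478. Among antigen processing genes, the immunoproteasome subunit Psmb8 read 5025 and 1890, while the class I gene H2-K1 (24140 and 17820) and B2m (30520 and 27210) were within 2-fold. Ifngr1, the ligand-binding chain of the interferon gamma receptor, read 2283 and 614, and it was no member of the list. Clustered antiviral genes outside the list were lower too, Trim34a, Trim12a and Trim12c by at least 2.17-fold to at least 2.67-fold.

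Immune cell markers gave a few lower calls beside these. Of 18 measured, 3 were lower and 1 higher with a median of -0.33, which was between -0.30 and -0.15 under 4 alternatives. Their summed signal over 25 matched genes was 11660 in WT and 9794 in 2KO. Ptprc, the pan-leukocyte marker CD45, read 223 and 68.7, Cd74, the class II invariant chain, read 1817 and 768, and Lyz2, a myeloid lysozyme, read 978 and 425. H2-Eb1, a class II gene, was within 2-fold at 2232 and 3627. The T cell genes Cd3e, Cd3g and Cd3d and the Langerhans cell marker Cd207 were below the floor on both basal arrays. The part of immune cells in the interferon genes was not tested.

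Among 27 AP-1 and other immediate early genes, 6 were lower and 0 higher, 24 ratios were below 0 and the median was -0.54. Junb read 9531 in WT and 3052 in 2KO, 3.12-fold lower, Fosb read 12820 and 4440, and Klf2 read 1057 and 272. Fos (23790 and 20190) and Jun (26710 and 18320) were within 2-fold.

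Hair genes were present in WT basal cells and lower in 2KO. Of 30 measured hair shaft and inner root sheath genes, 15 were lower and 2 higher, with a median of -0.94. Krt25, an inner sheath keratin, read 1171 and 84.5, 13.9-fold lower, and its neighbours Krt27 and Krt28 read 335 and 86.6 and 438 and 82.8. Krt35, a hair shaft keratin, read 892 and 36.5, at least 10.7-fold lower, and Krt32 read 1528 and 196. The summed signal over 43 matched genes was 19760 in WT and 10100 in 2KO basal cells, beside 131500 and 96000 in matrix. Signals under the floor numbered 13 of the 43 in WT and 29 in 2KO. Their source in a sort for basal epidermis, and its part in these ratios, was not tested. The 2 higher members were Trps1 (130 and 1050, 8.05-fold, with 3 other probe sets 3.68-fold to 8.996-fold higher) and Lef1 (126 and 396).

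Genes of the outer root sheath and follicle stem cells had 8 of 37 higher and 4 lower, with a median of -0.09. Wif1, a secreted Wnt inhibitor, read 113 in WT and 854 in 2KO, 7.54-fold higher, and Tcf7l1 and Lhx2, both stem cell regulators, were 3.78-fold and 3.69-fold higher. Il1r2, the interleukin-1 decoy receptor, read 5974 and 489, 12.2-fold lower. Sox9 (3017 and 2253) and Lgr6 (2292 and 2149) were within 2-fold.

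Signalling pathways differed in their calls. Of 37 Wnt genes, 5 were higher (13.5%, beside 6.59% of all genes) and 1 lower. The higher ones included the receptor gene Fzd3 (179 and 500.0, 2.79-fold higher) and the secreted inhibitor Notum (80.6 and 342, at least 4.11-fold higher), while the target gene Axin2 was within 2-fold at 510 and 407. Of 26 BMP and TGF-beta genes, 1 was higher and 4 lower (15.4%, beside 4.09%). Bmp2 read 6664 and 1993, 3.34-fold lower, and the BMP target genes Id1, Id2 and Id3 were 2.98-fold, 2.01-fold and 2.30-fold lower. Of 16 Notch genes 0 were called, which is near the share of all genes. Notch1 came nearest to a call on the higher side, at 4051 and 7558. Of 10 Hedgehog genes 1 was higher, the ligand gene Dhh, at 22.5 and 347, and the target genes Gli1 and Ptch1 were within 2-fold.

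Enzymes of xenobiotic, retinoid and redox metabolism had 11 of 46 higher and 5 lower, with a median of 0.23. Gpx2, a glutathione peroxidase, read 92.2 in WT and 1485 in 2KO, 16.1-fold higher, and Gsta4, a glutathione transferase, read 190 and 2151, 11.3-fold higher. Among retinoid genes, Aldh1a3, which makes retinoic acid, read 85.3 and 497, and the binding protein gene Crabp2 read 600 and 2506. Adh7, a retinol dehydrogenase, read 3540 and 381, 9.29-fold lower, and Adh1, of the same family, read 722 and 79.4. The cytochrome P450 gene Cyp2b10 read 1348 and 109, 12.4-fold lower. Of 26 genes for sterol and fatty acid synthesis 2 were higher (7.7%) and 1 lower (3.8%), near the 6.59% and 4.09% of all genes. The calls included a pair of opposite desaturases. Scd2 read 1179 and 10720, 9.09-fold higher, and Scd1, the desaturase of sebocytes, read 6636 and 2977, 2.23-fold lower.

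Other leading genes belonged to no list. Txnip, a thioredoxin inhibitor that responds to glucose, read 8554 in WT and 991 in 2KO, 8.64-fold lower, and its second probe set was 9.63-fold lower. Fcgbp, a mucin-like protein gene, read 9093 and 700.3, 12.99-fold lower. Clca3a2 and Clca3a1, which lie beside Clca2, were each 9.15-fold lower, at 21660 and 2368 and at 5160 and 564, and since these are close copies their signals may overlap. Sostdc1, a secreted BMP and Wnt inhibitor, read 11260 and 2292. On the higher side, Atg9b, an autophagy gene, read 60.7 and 2013, at least 24.2-fold, with a second probe set below the floor on both, and Slc5a1, a sodium-glucose transporter gene, read 86.6 and 1088. Gapdhs, the sperm form of a glycolytic enzyme, read 84.1 and 1406, and Myh10, a non-muscle myosin gene, read 39.9 and 983, again with a second probe set below the floor on both.

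Markers of other cell types that a sort of basal cells could carry were also read. Of 23 measured fibroblast and endothelial genes, 4 were higher and 1 lower with a median of 0.13, and the summed signal over 27 was 49740 in WT and 37470 in 2KO. Col1a1 read 910 and 479, and Fbln2, a matrix gene also on this list, read 265 and 2484, 9.37-fold higher. Of 8 melanocyte genes, 1 was lower, Mitf, at 572 and 225, and 0 were higher. Of 4 skeletal muscle genes 0 were called, which is near the share of all genes. Of 14 sebocyte genes 4 were lower (28.6%) and 1 higher (7.1%), with Elovl3 at 401 and 94.2 and Pparg within 2-fold at 181 and 229. The 3-prime over 5-prime ratio of the actin control, a measure of RNA integrity, was 1.39 in WT and 1.42 in 2KO, that of Gapdh 0.718 and 0.831, and that of the transferrin receptor 6.36 and 2.30.

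Beside the other cell types, the basal calls fell into groups. Each comparison has its own WT array, and mice may be shared within a genotype. Over all genes measured in each, 9.03% were higher and 1.62% lower in matrix, which had 189 lower genes in all, and 8.16% and 4.75% in ORS. Of the 760 genes higher in basal cells, 212 were higher in matrix and ORS too, 169 in ORS but not matrix, 66 in matrix but not ORS, and 313 in neither. Of the 471 lower genes, 19 were lower in both others, 160 in ORS but not matrix, 7 in matrix but not ORS, and 285 in neither. The opposite call was seen in matrix for 12 higher and 54 lower genes, and in ORS for 13 and 10. Calcb, for example, was higher in all 3, at 219 and 1797 in matrix and 147 and 3087 in ORS. Gpx2 read 89.5 and 161 in matrix and 93.8 and 216 in ORS, so it passed 2-fold in ORS but not in matrix.

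Genes whose basal ratio lay farthest from the mean of the other ratios were chosen by that distance, and they are given as a description. Sptssb, a subunit gene of the enzyme that starts sphingolipid synthesis, was at least 11.8-fold higher in basal cells (55.5 and 983; at least 1.58-fold at its second probe set) but read 607 and 128 in matrix. Gsta4 read 377 and 125 in ORS, against the higher basal signal. Car2, a carbonic anhydrase, read 155 and 1607 in basal cells, 1022 and 403 in matrix and 140 and 426 in ORS. Krt77 read 221 and 609 in matrix, where it was higher in 2KO, and 1937 and 68.8 in ORS. Il6ra, the interleukin-6 receptor gene, read 2013 and 208 in basal cells, 115 and 325 in matrix and 111 and 533 in ORS. In WT both Krt77 and Il6ra were brightest in basal cells, and in 2KO the 3 cell types lay closer together for Il6ra.

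**Figure D5:**
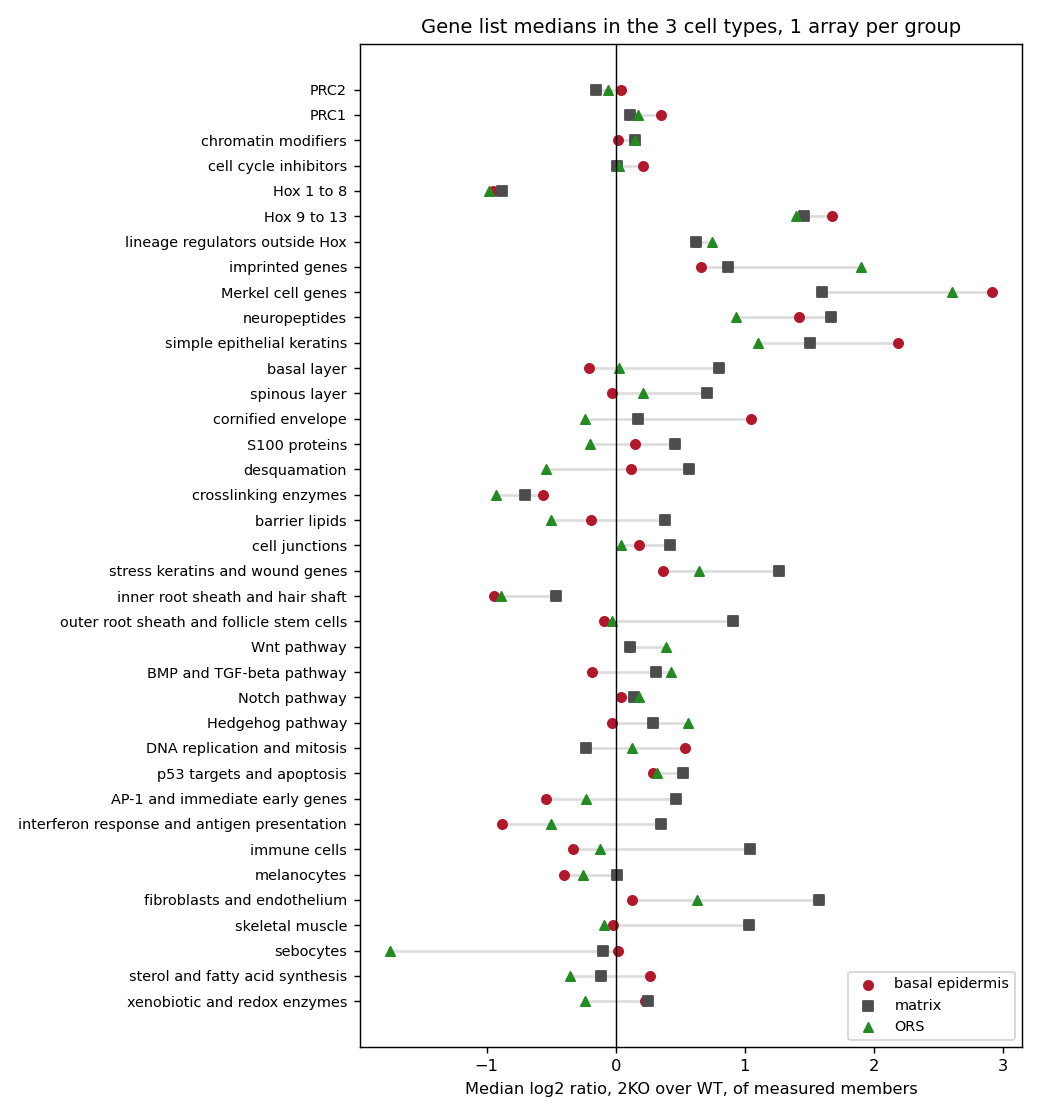
Median log2 ratio of 2KO over WT over the measured members of each gene list in basal epidermis (circles), matrix (squares) and ORS (triangles), 1 array per group. At the floor used here, the basal median is the highest of the 3 for Merkel cell genes (2.92), cornified envelope genes (1.05) and DNA replication and mitosis (0.54). It is the lowest for interferon genes (-0.88) and AP-1 genes (-0.54). The basal cornified envelope median was 0.055 and 0.17 at the other floors.

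Several lists had basal medians apart from those of the other cell types, although no difference between them was tested. The interferon list had medians of -0.88 in basal cells, 0.35 in matrix and -0.50 in ORS. For AP-1 genes they were -0.54, 0.47 and -0.23. DNA replication and mitosis stood at 0.54, -0.23 and 0.13, and cornified envelope genes at 1.05, 0.17 and -0.24, where the basal value fell to 0.055 and 0.17 at the other floors. Hox groups 1 to 8 lay close together at -0.95, -0.88 and -0.98, as did groups 9 to 13 at 1.68, 1.46 and 1.40.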

How the data were processed

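RNA of sorted mouse skin cells was measured on 6 Affymetrix arrays, 1 per group, with 3IVT biotin labelling, per the labels' protocols. Values were deposited as intensities, 1 MAS5 signal per probe set, per the submitters' processing notes; MAS5's version and detection calls are not given in the sources used here. Both MOE430A 2.0 and MOE430v2 appear as the array's name in the series text; 45101 probe sets are listed. Each array has a 2% trimmed mean of 500.0, so the authors scaled all arrays to 1 total, and a shift of most genes in 1 direction cannot be seen. Basal medians were 72.6 in WT and 78.4 in 2KO.

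Probe sets were named from the platform annotation, 34958 with 1 gene, 932 with several (left out) and 9211 not listed. The 64 control probe sets were left out. Each gene was read from its brightest probe set, by mean log2 signal of the 6 arrays. Signals were floored at 83.2, and log2 ratios of 2KO over WT were called at 2-fold. With 1 array per group the basal pair alone allows no test, error or p-value, and no genotype effect over the 3 cell types was fitted; the number of arrays limits the precision. The 38 gene lists hold 1105 distinct genes, of which 1013 were matched, and some genes are in more than 1 list. Lists and members were chosen with earlier results of these data known, so their counts are descriptions. A list was given a direction only where its median lay at least 0.3 from 0.

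Named genes were Ezh1, Ezh2, Krt5, Krt14 and Cdkn2a, the 25 largest and 25 smallest ratios, the 10 largest and 10 smallest differences from the other cell types, members of the lists and sex-linked genes. Neighbours of called genes and genes outside the lists that adjoin them were named after their values were seen. Promoter windows are RefSeq's, on GRCm38.p6. Alternatives were other scalings, floors at the 25th and 75th percentiles, other probe set choices and a 3-fold threshold. Python 3.11.15, pandas 2.3.3, numpy 2.4.6, R 4.3.3 and limma 3.58.1 were used.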

Additional observations from a re-analysis of the deposited data

Results flagged for a closer look

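The results below are differences between the basal log2 ratio and that of another cell type, with opposite 2-fold calls in the 2 cell types, or for gene lists with medians on opposite sides of 0. With 1 array per group none of these differences was tested. Basal minus matrix, the difference was 5.81 for Sptssb, 4.72 for Car2, 3.67 for Pm20d1, -7.55 for Krt77, -6.41 for Il1r2, -5.21 for Krt80, -4.78 for Il6ra, -4.36 for Kcnk2, -3.92 for Alox12e and -3.84 for Ephb6. Basal minus ORS, it was 5.09 for Gsta4, 4.50 for Acaa1b, 4.11 for Pm20d1, -5.54 for Il6ra and -4.51 for Thsd4, whose basal ratio of -1.01 was just past 2-fold. Krt77, Il1r2, Il6ra and Krt80 were lower in 2KO basal cells and higher in 2KO matrix. Between basal cells and matrix, list medians differed by -1.01 for AP-1 and immediate early genes, -1.23 for interferon response and antigen presentation, and -1.37 for immune cells. The immune cell medians were -0.33 in basal cells and 1.04 in matrix, so most of that difference lay in matrix. There the summed signal of the immune markers was 2829 in WT and 8793 in 2KO.

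Probe sets that the annotation does not list were outside the gene comparison. Of 9160 such probe sets that are no controls, 2501 were measured in the basal pair, 116 were higher, 145 were lower, and 6 were at least 8-fold higher in 2KO.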

How the results depend on the processing

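With the floor at the 25th percentile of all signals 1637 genes were higher and 828 lower, and at the 75th percentile 235 were higher and 235 lower, which put the share of calls that were higher at 50% against 61.7%. Taking the mean over a gene's probe sets gave 502 higher genes. At a 3-fold threshold 306 were higher and 169 lower. The median of the crosslinking enzymes turned from -0.56 to 0.44 with the floor at the 75th percentile, and the cause was not tested. Scaling to a common median gave 691 higher and 632 lower genes (52.2% higher), and scaling to the hybridisation controls 642 and 586 (52.3%). The first kept 668 of the 760 higher and 471 of the 471 lower calls, and in 0 of them did the sign turn. It multiplies each array by 1 factor, which here moved the basal ratios down together. Lower calls were therefore bound to be kept and signs to hold, so these counts are no check of the calls. The genes with the 25 largest and 25 smallest ratios, those farthest from the other cell types, Ezh1 and Ezh2 included 59 called genes. Of their 528 values under the alternatives, 15 fell short of 2-fold, in 12 genes, and missing values were not counted. Most of these genes were picked for large ratios, so the count does not stand for the other named genes, which it leaves out. Among all calls, 149 of the 760 higher and 163 of the 471 lower ones were made under all the alternative settings. No paired analysis was possible because the basal groups compared have 1 array each and share no replicate numbers. A genotype effect paired by cell type, which would not be a basal result, was not fitted. Signals near the floor, and genes that are dark in WT, limit what can be compared.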

Other observations

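Other leading genes of the basal pair, not described above, were Ddit4l, a stress-induced inhibitor of mTOR signalling, at 36.4 in WT and 1054 in 2KO, at least 12.7-fold higher, and Wfdc2, a secreted protease inhibitor gene, at 119 and 1404, 11.8-fold higher. Cpt1c, a brain form of carnitine palmitoyltransferase, read 117 and 1410, 12.01-fold higher, and Mcam, an adhesion molecule gene, read 144 and 1457. On the lower side, Bbox1, an enzyme gene of carnitine synthesis, read 1960 and 49.6, at least 23.6-fold lower, and Abi3bp, an extracellular matrix protein gene, read 1830 and 53.9, at least 21.99-fold lower. Serpinb7 read 1360 and 160, 8.51-fold lower, Adgrg6 read 2079 and 282, and Gna14, a G protein gene, read 839 and 107.

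Mt4, a metallothionein gene of stratified epithelia, read 633 in WT and 3078 in 2KO basal cells, 4.87-fold higher, beside 10690 and 10780 in matrix and 334 and 204 in ORS. Capns2, a calpain subunit gene, read 5791 and 807, 7.18-fold lower, and adjoins Lpcat2 and Mmp2, which were 2.97-fold and 3.25-fold lower.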
